A study of Mus with 8 samples.

Results

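The replication-dependent histone genes of RAW264 cells, a mouse macrophage-like line, were taken as the probe sets whose only gene symbol began with Hist1h, Hist2h, Hist3h or Hist4h. These were 59 of the 21154 symbols measured, in 5 classes read from the symbol, with 5 H1, 16 H2a, 17 H2b, 10 H3 and 11 H4 genes. Each symbol had 1 probe set that named no other symbol. RNA was measured on 8 Clariom S mouse arrays, in 4 groups of 2. BTEE-treated cells had been kept for 24 h with an ethanol extract of the green alga Botryococcus terribilis (BTEE) at 0.2 mg/mL, and control cells for the same time in culture medium alone. Both then received lipopolysaccharide (LPS), the bacterial wall component that activates macrophages, at 1 ng/mL for 6 or 17 h. No group had been left without LPS, and no ethanol was named for the control cells. The dose of BTEE on the arrays was above the doses for which the study states that cytotoxicity was not significant. The 2 arrays of a group came from duplicate RNA samples, and whether these were from separate cultures was not stated, so a p-value here reflects only how far arrays of a group lay apart, which may be technical.

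Replication-dependent histones are the bulk histones that package newly made DNA. H2a, H2b, H3 and H4 form the protein core of the nucleosome, and H1 binds the linker DNA between nucleosomes. Most of their genes lie in clusters and have no introns. They are transcribed mainly in S phase, and most of their mRNAs end in a stem-loop bound by SLBP in place of a poly(A) tail. These mRNAs are degraded when DNA synthesis stops. The labelling kit of these arrays primes along the whole RNA and does not need a poly(A) tail. In the RNA of a whole culture, fewer cells in S phase and less histone mRNA per cell cannot be told apart.

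Values are log2 signals on the SST-RMA scale of the deposited table, on which 1 unit is a doubling. Fold changes are differences of group means on that scale, and a gene was called higher or lower at a Benjamini-Hochberg adjusted p under 0.05 over all 21154 symbols in limma. The median signal of an array was 5.26 to 5.3 and the largest 18.96 to 19.06, and arrays of a group correlated at r from 0.9984 to 0.9987 over all symbols. The 10 macrophage markers averaged 14.82 to 15.18 on every array, and the 16 markers of B and T cells, fibroblasts, epithelium, endothelium and germ cells 3.80 to 4.00. The mean signal of a histone gene over the 8 arrays lay between 3.28 and 16.5. For 6 genes it was under 6 (Hist1h1t, Hist1h2ba, Hist3h2ba, Hist3h2bb-ps, Hist1h3a and Hist4h4), near or below the array median, and for 11 it was at least 15. Probe sets differ in sensitivity, so the signals of different genes give no order of their RNA amounts.

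Of the 59 genes, 46 have Hist1 symbols, 10 Hist2 and 2 Hist3, and the last is Hist4h4. On GRCm38, 58 genes had 1 RefSeq entry, and Hist1h2ap matched 2 entries and was given no position. The Hist1 genes with a position lie on chromosome 13, Hist2 on chromosome 3 and Hist3 on chromosome 11. Hist4h4 stands alone on chromosome 6. Hist1h2al, at chr13:51200084-51203066, lies more than 100000 bases from any other placed member. Hist1h2al and Hist3h2bb-ps are annotated as transcribed pseudogenes. Copies of a class are nearly identical in sequence, and how the array's probes are shared among them was not stated. Hist2h2aa1 and Hist2h2aa2 had the same value on every array, as had Hist2h3c1 and Hist2h3c2, so the 59 symbols held 57 distinct sets of values. A further 7 probe sets with several symbols included a histone gene and were kept out of the members.

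After 6 h of LPS stimulation, BTEE-treated cells had more RNA of the core histones H2b and H4 than control cells. Of the 59 genes 30 were higher, 3 were lower and 26 did not pass, where 14.5% of all symbols were higher and 15.7% lower. Among symbols with a mean signal of at least 6, where 53 of the 59 lay, 16.5% were higher and 20.3% lower. The median log2 fold change of the 59 genes was 0.27, beside -0.005 over all symbols. Both BTEE arrays lay above both control arrays for 47 genes and below them for 6, where 32.8% and 34.5% of all symbols did so. At the thresholds of the study's methods, a fold over 1.5 with an unadjusted p under 0.05, limma gave 19 higher and 0 lower, where 5.04% and 5.38% of all symbols were, and without the fold limit 39 higher and 5 lower, where 20.9% and 22.3% were. Of the higher genes, 12 were H2b, 8 H4, 7 H2a, 2 H3 and 1 H1, and the 3 lower genes were all H2a.

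The H2b genes showed the largest changes at 6 h, with 12 of 17 higher and a class median of 0.90. Hist1h2br read 7.62 and 7.59 in control cells and 9.13 and 9.23 in BTEE-treated cells, a 2.98-fold difference (log2 1.58, SE 0.10, limma adjusted p = 0.000629). Hist1h2bj read 11.86 and 12.02 in control cells and 13.48 and 13.53 with BTEE, 2.96-fold more (log2 1.57, SE 0.09, limma adjusted p = 0.000601). For both genes the BTEE arrays stood more than 1 log2 unit above the control arrays, and the arrays of a group lay close together. Hist1h2bk read 11.49 and 11.46 against 12.85 and 12.88 with BTEE (2.62-fold), and Hist1h2bn 12.03 and 11.98 against 13.26 and 13.26 (2.39-fold). The other 8 higher H2b genes lay between 0.46 for Hist2h2bb and 1.00 for Hist1h2bf on the log2 scale. A further probe set, shared by Hist1h2bq and Hist1h2br and outside the members, stood at 1.245. The 5 H2b genes that did not pass were Hist1h2bc at 0.18, Hist2h2be at -0.25, the pseudogene Hist3h2bb-ps at -0.23, Hist3h2ba at 0.23 and the testis form Hist1h2ba at 0.03. Hist1h2ba read 5.09 and 4.97 in control and 5.34 and 4.77 in BTEE-treated cells, so the control arrays lay inside the range of the BTEE arrays.

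Of the H4 genes, which encode the same or nearly the same protein, 8 of 11 were higher at 6 h, with a class median of 0.41. Hist4h4, the H4 gene outside the clusters, read 5.28 and 5.61 in control cells and 6.52 and 6.69 in BTEE-treated cells, 2.24-fold more (log2 1.16, SE 0.14, limma adjusted p = 0.00202), at a signal near the array median. Hist1h4c rose from 11.92 and 11.78 to 12.97 and 12.85, a 2.09-fold difference (log2 1.06, SE 0.09, limma adjusted p = 0.000833). In both genes all BTEE arrays were above all control arrays. Hist1h4f (0.91) and Hist2h4 (0.74) followed on the log2 scale. Hist1h4d at 0.17, Hist1h4i at 0.22 and Hist1h4h at 0.03 did not pass. Without BTEE-treated replicate 1 or control replicate 1 of 6 h, 5 H4 genes were higher.

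Of the 16 H2a genes 7 were higher and 3 lower at 6 h, with a class median of 0.23. Over all symbols 14.5% were higher and 15.7% lower, and the share of lower H2a genes was near the latter. Hist2h2ab read 8.14 and 8.21 in control cells and 8.85 and 8.89 with BTEE, a 1.62-fold rise (limma adjusted p = 0.00242). Hist1h2ac read 8.93 and 9.11 against 9.61 and 9.62 with BTEE (1.51-fold), Hist1h2ak 15.36 and 15.26 against 15.90 and 15.85 (1.48-fold), and Hist1h2ae rose by 0.47 on the log2 scale. These 4 were the H2a genes with the largest rise, and none of them had overlapping arrays. The transcribed pseudogene Hist1h2al fell by 0.53 on the log2 scale, from 16.60 and 16.46 in control cells to 16.00 and 16.00 in BTEE-treated cells (SE 0.08, limma adjusted p = 0.0044). Hist2h2aa1 and Hist2h2aa2, with 1 shared set of values, fell by 0.36, from 17.38 and 17.32 to 17.07 and 16.92 (limma adjusted p = 0.0285). The testis form Hist1h2aa stood at -0.22 and did not pass. The H2a counts at 6 h depended on single arrays: without either BTEE-treated or either control array of 6 h, 4 H2a genes were higher in each case, and without BTEE-treated replicate 2, control replicate 1 or control replicate 2 only 1 was lower.

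The H3 and H1 classes had the fewest called genes at 6 h, and their shares of higher genes were near the 14.5% of all symbols. Of 10 H3 genes 2 were higher, Hist1h3g at 0.48 (from 14.22 and 14.31 to 14.77 and 14.72, limma adjusted p = 0.00405) and Hist1h3e at 0.23 (from 15.22 and 15.19 to 15.40 and 15.47, limma adjusted p = 0.0445). The H3 median was 0.22, and 9 of 10 H3 genes had both BTEE arrays above both control arrays, where 32.8% of all symbols did so. Most differences in this class thus had the same sign and a small size. Of 5 H1 genes Hist1h1b alone was higher, at 9.53 and 9.84 in control and 10.18 and 10.45 in BTEE-treated cells (1.55-fold, limma adjusted p = 0.0135), with a class median of 0.31. The testis-specific linker histone gene Hist1h1t read 4.00 and 4.11 in control and 4.33 and 4.40 in BTEE-treated cells, below the array median, and did not pass. Hist1h3e did not pass when any 1 of the 8 arrays was left out, and Hist1h1b did not without BTEE-treated replicate 2 or control replicate 1 of 6 h.

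**Figure D1:**
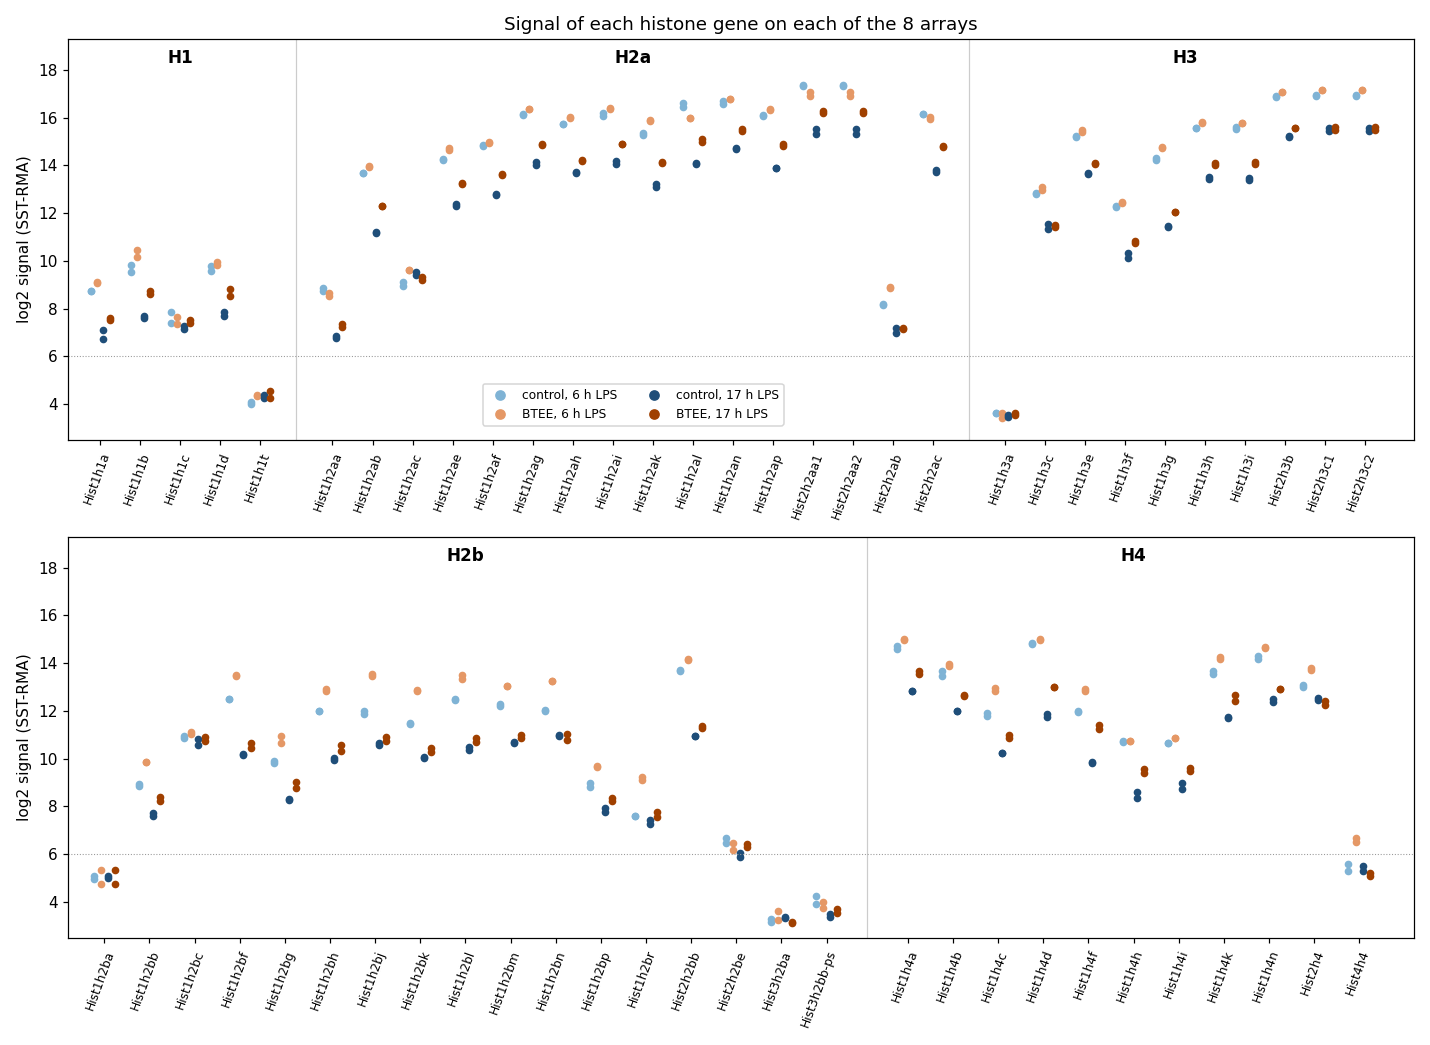
Log2 signal (y axis) of each of the 59 histone genes (x axis, by class) on each of the 8 arrays, with 1 point per array and the groups by colour, and a dotted line at a signal of 6. Nearly all genes stand lower at 17 h than at 6 h, the BTEE arrays of 6 h stand clearly above the control arrays for most H2b genes, and at 17 h the BTEE arrays stand above the control arrays for 14 of 16 H2a genes.

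After 17 h of LPS stimulation, the higher level with BTEE was found in more histone genes and was largest in H2a and H4. Of the 59 genes 40 were higher, 0 were lower and 19 did not pass, where 14.9% of all symbols were higher and 13.6% lower. Among symbols with a mean signal of at least 6, 22% were higher and 16.7% lower. At an unadjusted p under 0.05 the limma counts were 44 higher and 0 lower, where 21.3% and 20.3% of all symbols were. The median log2 fold change was 0.51, beside 0.005 over all symbols, and both BTEE arrays lay above both control arrays for 47 genes and below for 4, where 33.9% and 32.6% of all symbols did so. A fold over 1.5 with an unadjusted p under 0.05 was found for 27 genes, all higher, where 4.59% of all symbols were higher and 4.19% lower. The higher genes were 14 H2a, 9 H4, 8 H2b, 6 H3 and 3 H1.

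Of the H2a genes 14 of 16 were higher at 17 h, with a class median of 0.81. Hist1h2ab read 11.20 and 11.16 in control cells and 12.32 and 12.28 in BTEE-treated cells, 2.17-fold more (log2 1.12, SE 0.07, limma adjusted p = 0.000913). Hist2h2ac read 13.80 and 13.71 against 14.81 and 14.77 with BTEE (log2 1.04, SE 0.08, limma adjusted p = 0.000959). Both were about as far apart between the groups as a doubling, with the arrays of a group within 0.1 of each other. Hist1h2al, one of the genes that had been lower at 6 h, rose from 14.04 and 14.09 to 15 and 15.10 (1.98-fold, limma adjusted p = 0.00112), and Hist2h2aa1 and Hist2h2aa2 from 15.51 and 15.33 to 16.27 and 16.19 (1.75-fold, limma adjusted p = 0.00221). Hist1h2ak stood at 0.97 on the log2 scale. The testis form Hist1h2aa read 6.77 and 6.87 in control and 7.25 and 7.35 in BTEE-treated cells and was higher (1.40-fold, limma adjusted p = 0.00924), a call lost without BTEE-treated replicate 2 or control replicate 1 of 17 h. The 2 H2a genes that did not pass, Hist1h2ac at -0.21 and Hist2h2ab at 0.10, were the 2 with the largest H2a rise at 6 h.

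Of the H4 genes 9 of 11 were higher at 17 h, with a class median of 0.70, and the largest change of all 59 genes at this time was in this class. Hist1h4f read 9.85 and 9.84 in control cells and 11.26 and 11.43 in BTEE-treated cells, 2.83-fold more (log2 1.5, SE 0.08, limma adjusted p = 0.000913). Hist1h4d, which had not passed at 6 h, read 11.76 and 11.87 in control and 13.02 and 13.02 in BTEE-treated cells (2.31-fold, limma adjusted p = 0.000913). Hist1h4h, at 0.03 at 6 h, rose at 17 h from 8.59 and 8.34 to 9.58 and 9.39 (2.03-fold, limma adjusted p = 0.00171). In these 3 genes the lowest BTEE array lay well above the highest control array. Hist1h4k stood at 0.81. Hist2h4 (-0.16) and Hist4h4 (-0.25; 5.28 and 5.50 in control and 5.08 and 5.21 in BTEE-treated cells) did not pass.

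The H2b genes, first at 6 h, had the lowest class median at 17 h, 0.32, with 8 of 17 higher. Hist1h2bb rose from 7.62 and 7.73 in control to 8.41 and 8.24 in BTEE-treated cells (1.57-fold, limma adjusted p = 0.00322), and Hist1h2bg from 8.26 and 8.33 to 8.76 and 9.03 (1.52-fold, limma adjusted p = 0.0151). Hist1h2bh at 0.46 and Hist1h2bp at 0.44 followed. Of the 4 H2b genes with the largest rise at 6 h, Hist1h2bk alone passed at 17 h, at 0.32. Hist1h2bn read 10.97 and 10.99 in control and 11.05 and 10.80 in BTEE-treated cells, with the control arrays inside the range of the BTEE arrays, and Hist1h2bj and Hist1h2br stood at 0.23 and 0.32 without passing. The testis form Hist1h2ba read 5.01 and 5.07 in control and 4.75 and 5.32 in BTEE-treated cells and did not pass. The count of 8 fell to 2 without either control array of 17 h and to 3 without BTEE-treated replicate 2.

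Of the H3 genes 6 of 10 were higher at 17 h, with a class median of 0.38. Hist1h3i read 13.46 and 13.40 in control cells and 14.14 and 14.05 with BTEE (1.59-fold, limma adjusted p = 0.00193), and Hist1h3g 11.46 and 11.44 against 12.06 and 12.03 (1.51-fold, limma adjusted p = 0.00236). Hist1h3f at 0.57 and Hist1h3h at 0.56 on the log2 scale were next. Mouse H3 genes encode either H3.1 or H3.2, which differ in a single residue, and grouped after their values were seen the 4 H3.1 genes had a median of 0.58 at 17 h (3 higher) and the 6 H3.2 genes 0.20 (3 higher). At 6 h the medians were 0.21 and 0.22. The H3.2 genes Hist2h3c1 and Hist2h3c2 shared 1 set of values. With that set counted once, the H3.2 values at 17 h were 0.03, 0.05, 0.35, 0.41 and 0.57. The H3.1 gene Hist1h3a stood at 0.11 at 17 h, with readings of 3.46 to 3.65, below the array median. Of the linker histones 3 of 5 were higher at 17 h, with a median of 0.64. Hist1h1b read 7.71 and 7.60 in control and 8.72 and 8.63 in BTEE-treated cells (2.03-fold, limma adjusted p = 0.003), Hist1h1d rose by 0.91 and Hist1h1a by 0.64 (not without BTEE-treated replicate 1). The testis-specific Hist1h1t, at 0.11, and Hist1h1c, at 0.25, did not pass.

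These calls rested on the spread between arrays of a group, which was small: the pooled SD of a histone gene had a median of 0.077. A wider yardstick was the spread of the 1404 olfactory and vomeronasal receptor genes, which had a median signal of 3.61 and log2 fold changes with an SD of 0.38 at 6 h and 0.36 at 17 h. With that SD added in quadrature to each standard error of limma, 0 of the 59 genes had an adjusted p under 0.05 at either time. As 0 of all symbols had, this threshold could not set the histone genes apart. That SD also holds the spread between arrays, which was thus counted again. At an unadjusted p under 0.05, 9 of the 59 were then higher at 6 h and 11 at 17 h, where 0.931% and 0.789% of all symbols were. More than 2 of those SDs above 0 stood 13 of the 59 at 6 h and 19 at 17 h, where 2.27% of all symbols did so at each time.

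**Figure D2:**
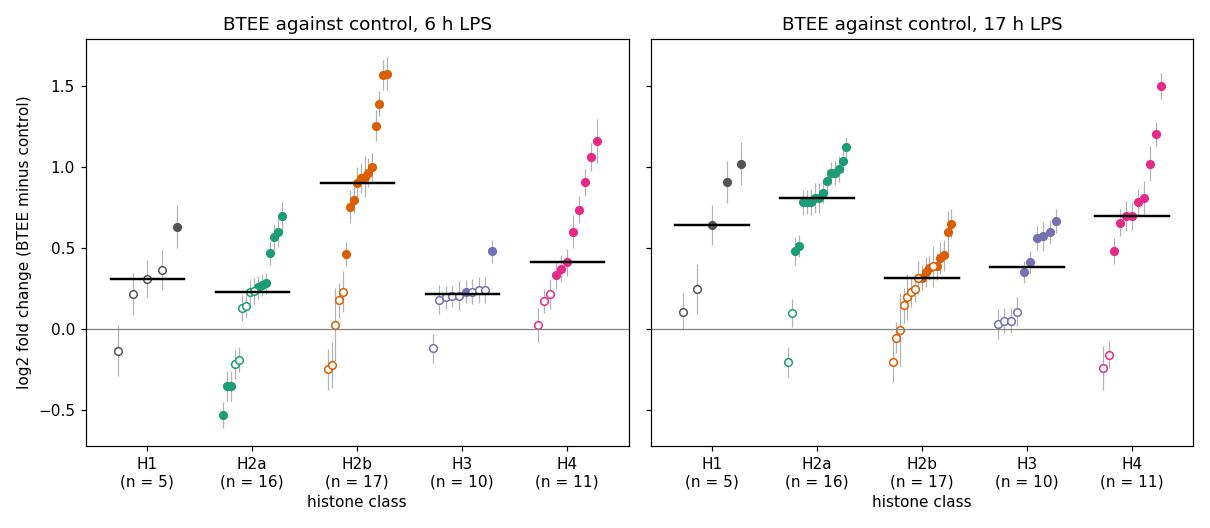
Log2 fold change of BTEE-treated against control cells (y axis) for each histone gene by class (x axis), at 6 h (left) and 17 h (right) of LPS stimulation, with the moderated standard error as a grey bar, filled points for an adjusted p under 0.05 and a black line at the class median. The class with the highest median is H2b at 6 h (0.90) and H2a at 17 h (0.81).

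The order of the classes differed between the times. Of the 59 genes 22 were higher with BTEE at both times, 8 at 6 h alone, 15 at 17 h alone, 3 went from lower at 6 h to higher at 17 h, and 11 passed at neither time. The 8 at 6 h alone were Hist1h2bj, Hist1h2bm, Hist1h2bn, Hist1h2br, Hist1h2ac, Hist2h2ab, Hist2h4 and Hist4h4. In the test of the difference between both effects, the BTEE effect was larger at 17 h for 21 genes and smaller for 12, where 16.7% and 14.8% of all symbols were. The larger effects at 17 h included 13 of 16 H2a genes, and the smaller ones 8 of 17 H2b genes. H2a had 2 genes with a smaller effect at 17 h and H2b 1 with a larger one (Hist2h2be, 0.64). H4 had 5 larger and 2 smaller, H3 and H1 1 larger each. With 1 array left out, Hist2h2be passed only when it was replicate 1 of the BTEE-treated or control cells of 6 h, and Hist1h1d only when it was control replicate 1 of 6 h, BTEE-treated replicate 1 of 17 h or control replicate 2 of 17 h, and 3 H4 genes had a larger effect without either BTEE-treated array of 6 h, control replicate 2 of 6 h, BTEE-treated replicate 2 of 17 h or control replicate 2 of 17 h.

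The pseudogene Hist1h2al had the largest difference, 1.52 on the log2 scale (SE 0.11, limma adjusted p = 0.00112), as its order turned from control above BTEE at 6 h to BTEE above control at 17 h, with no overlap of arrays at either time. Hist2h2ac (1.23, limma adjusted p = 0.00116), Hist2h2aa1 and Hist2h2aa2 (1.17, limma adjusted p = 0.00194) and Hist1h4d (1.04, limma adjusted p = 0.00143) followed. In the other direction stood Hist4h4 (-1.41, SE 0.19, limma adjusted p = 0.00311), Hist1h2bj (-1.34, limma adjusted p = 0.00137), Hist1h2bn (-1.31), Hist1h2br (-1.26) and Hist1h2bk (-1.08). The 5 genes of this second group had the BTEE arrays at least 0.9 log2 units above the control arrays at 6 h. With the spread of the receptor genes added (SD 0.52 for this difference), 0 of the 59 differences passed the adjusted threshold, as did 0 of all symbols. With it, 1 higher and 3 lower had an unadjusted p under 0.05, where 0.851% and 0.87% of all symbols had.

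H2a and H2b genes often lie head to head with a shared promoter region, and 9 pairs of H2a and H2b neighbours, 163 to 280 bases apart, had both genes among the members. Their strands were not used here, and the pairs were collected after the class medians had been seen. At 6 h the H2b gene had the larger log2 fold change in 7 of the 9 pairs, with a median of H2b minus H2a of 0.63, and at 17 h the H2a gene in 8 of 9, with a median of -0.44. In the pair Hist1h2ag and Hist1h2bj the log2 fold changes were 0.23 and 1.57 at 6 h and 0.79 and 0.23 at 17 h. In the pair Hist1h2ak and Hist1h2bn they were 0.57 and 1.26 at 6 h and 0.97 and -0.06 at 17 h. The exception at both times was Hist1h2ac with Hist1h2bc, at 0.60 and 0.18 at 6 h and -0.21 and 0.15 at 17 h. At 6 h Hist2h2ac and Hist2h2be, at -0.19 and -0.25, were the other exception.

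**Figure D3:**
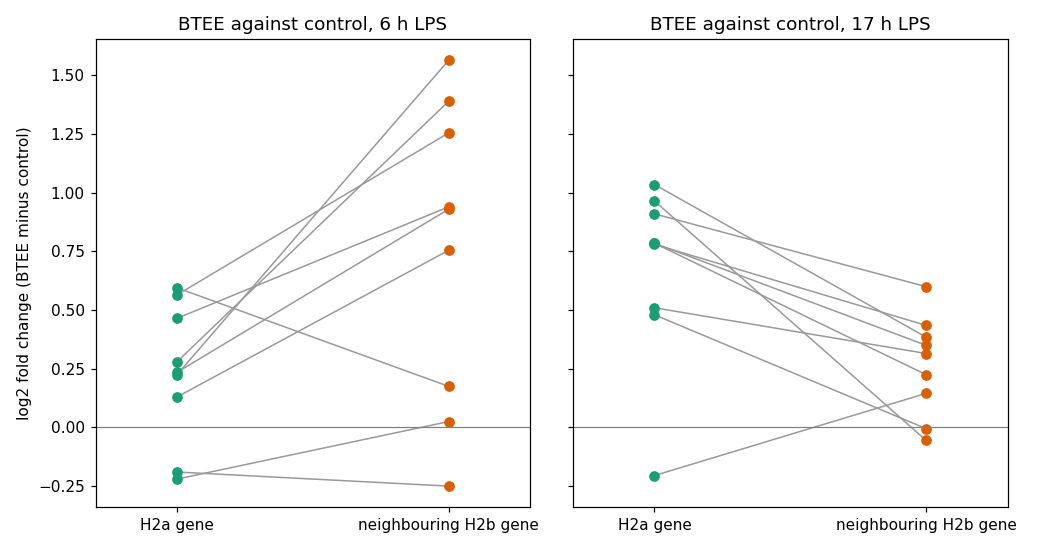
Log2 fold change of BTEE-treated against control cells (y axis) for 9 pairs of neighbouring H2a and H2b genes (points joined by a line), at 6 h (left) and 17 h (right) of LPS stimulation. The line rises from H2a to H2b in 7 of 9 pairs at 6 h and falls in 8 of 9 at 17 h.

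The genes were also grouped by the range of the array reading in which they lay, which is not an order of RNA amounts. Histone genes with a mean signal of at least 15 had a median log2 fold change of 0.20 at 6 h and 0.79 at 17 h, and those from 6 to 15 had 0.46 and 0.54. The genes of at least 15 were all H2a or H3, so these ranges differed in class as well as in signal. Within the range from 11 to 15, which holds 5 H2a, 8 H2b, 8 H4 and 6 H3 genes, the medians at 6 h were 0.28 for H2a, 0.97 for H2b, 0.51 for H4 and 0.22 for H3. At 17 h they were 0.91, 0.33, 0.74 and 0.57 in the same order. H2b was first at 6 h and H2a first at 17 h in this range, which was chosen after the data were seen. Within it the H2a genes had mean signals from 12.8 to 14.9 and the H2b genes from 11.2 to 12.5, without overlap. The range thus did not match these classes in signal, and the part of signal in their order was not tested.

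By position, the 5 stretches with over 2 members, each set off by more than 100000 bases, all held higher genes of several classes. Of all symbols 14.5% were higher and 15.7% lower at 6 h, and 14.9% higher at 17 h. In the stretch chr13:21715711-21837530, from Hist1h2bl to Hist1h2br, 9 of 13 genes were higher at 6 h and 10 at 17 h. In chr13:22035122-22043658, from Hist1h2ah to Hist1h2bj, 3 of 5 were higher at 6 h and 4 at 17 h. In chr13:23531044-23581969, from Hist1h4h to Hist1h4d, the count was 7 of 12 at 6 h and 12 of 12 at 17 h, so that this was the one stretch in which every member was higher at 17 h. In chr13:23683473-23764412, from Hist1h2ac to Hist1h1a, it was 6 of 12 at both times. The Hist2 genes at chr3:96219885-96270192 had 3 higher and 2 lower of 10 at 6 h, a share of lower genes near that of all symbols, and 5 higher at 17 h.

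From 6 h to 17 h of LPS stimulation the histone RNAs fell in both kinds of cells. In control cells 50 of the 59 genes were lower at 17 h and 1 was higher, where 26.4% of all symbols were lower and 25.8% higher, and the median log2 fold change was -1.81, beside 0.005 over all symbols. In BTEE-treated cells 51 were lower and 0 higher, where 24% and 23.6% of all symbols were, and the median was -1.51. At an unadjusted p under 0.05 in limma these counts were 52 and 0, where 27.4% and 27% of all symbols were. Among symbols with a mean signal of at least 6, 40.8% were lower and 34.7% higher in control cells at the adjusted threshold. In BTEE-treated cells 36.5% and 34.3% were. The arrays of 17 h lay below those of 6 h for 54 genes and above for 3 in control cells, where 37.5% and 38% of all symbols did so, and below for 54 and above for 0 in BTEE-treated cells, where 36.3% and 36.4% did so. The fall was called in both kinds of cells for 48 genes. With the spread of the receptor genes added, 27 genes were lower in control cells, where 2.26% of all symbols were, and 10 in BTEE-treated cells, where 1.35% were.

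In control cells Hist1h4d fell by 3.02 on the log2 scale, from 14.80 and 14.86 at 6 h to 11.76 and 11.87 at 17 h (limma adjusted p = 2.07e-07). Hist1h3g (-2.82), Hist2h2bb (-2.73) and Hist1h2ab (-2.51) followed, so the largest falls came from H4, H3, H2b and H2a alike. Of the linker histones Hist1h1b fell by 2.03. In BTEE-treated cells Hist1h2bf fell by 2.93, from 13.47 and 13.52 to 10.47 and 10.67 (limma adjusted p = 4.69e-07), followed by Hist2h2bb (-2.82), Hist1h3g (-2.70) and Hist1h2bj (-2.66). Here 3 of these 4 were H2b genes. By class, the median change in control cells was -2.04 for H2a, -1.24 for H2b, -1.60 for H3, -1.81 for H4 and -1.82 for H1. In BTEE-treated cells it was -1.40 for H2a, -1.92 for H2b, -1.61 for H3, -1.46 for H4 and -1.21 for H1.

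The 1 gene that was higher at 17 h in control cells was Hist1h2ac, at 8.93 and 9.11 at 6 h and 9.54 and 9.41 at 17 h (0.46, limma adjusted p = 0.00455), whereas in BTEE-treated cells it fell from 9.61 and 9.62 to 9.32 and 9.22 (-0.35, limma adjusted p = 0.0177), a fall that did not pass without either BTEE-treated array of 6 h or BTEE-treated replicate 2 of 17 h. The 8 that did not pass in control cells, named after their values were seen, were Hist1h1c, Hist1h1t, Hist1h2ba, Hist1h2bc, Hist1h2br, Hist3h2ba, Hist1h3a and Hist4h4. Of these Hist1h2br and Hist4h4 fell in BTEE-treated cells (-1.51 and -1.46), from the level that they had reached with BTEE at 6 h to one within 0.4 of the control cells at 17 h. Hist1h2bc (-0.20 in control and -0.23 in BTEE-treated cells) passed in neither, although its 8 arrays lay well above the array median, between 10.58 and 11.13.

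**Figure D4:**
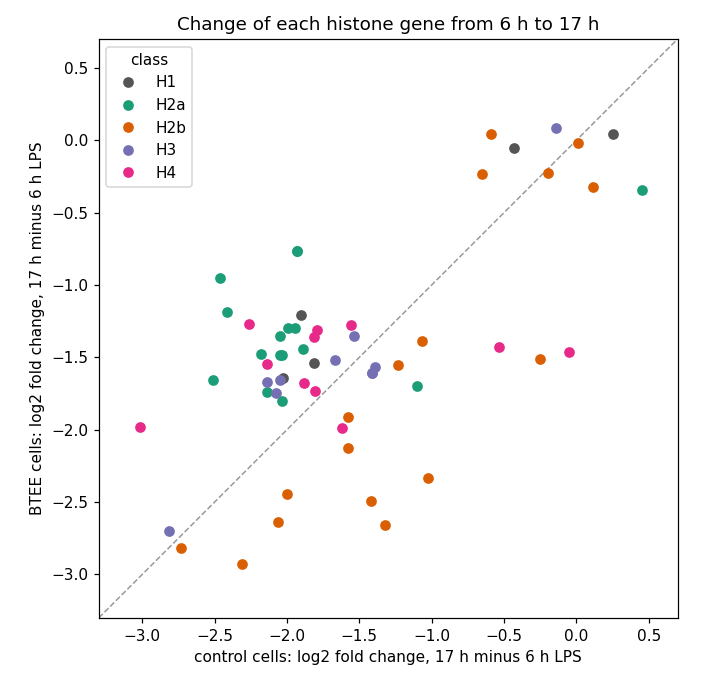
Log2 fold change from 6 h to 17 h of LPS stimulation in control cells (x axis) and in BTEE-treated cells (y axis), with 1 point per histone gene coloured by class and a dashed line of equal change. By value 35 genes, among them most H2a genes, changed less far downwards with BTEE and lie above the line, and 24, among them most H2b genes, lie below it.

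Genes that work with the histones were read from lists of textbook members. As above, 14.5% of all symbols were higher and 15.7% lower with BTEE at 6 h, and 14.9% and 13.6% at 17 h. Among symbols with a mean signal of at least 9 these shares were 15.1% and 20.8% at 6 h, and 23.5% and 17.7% at 17 h. Of 31 S phase genes of DNA replication, 10 were higher with BTEE at 6 h and 21 did not pass (median log2 fold change 0.17), led by the polymerase subunit Pola1 at 0.91, the flap endonuclease Fen1 at 0.68, the polymerase subunit Pold1 at 0.60 and the helicase subunit Mcm5 at 0.59. At 17 h 22 of the 31 were higher and 9 did not pass (median 0.42), led by the replisome subunit Gins1 at 0.94, the primase subunit Prim1 at 0.93, the thymidine kinase Tk1 at 0.79 and the clamp loader subunit Rfc4 at 0.73. The called S phase genes moved in the direction of most called histone genes, with lower list medians, and their part in the histone result was not tested. From 6 h to 17 h, when the histone genes fell, 9 of the S phase genes were higher and 14 lower in control cells (median -0.19), and 10 were higher and 10 lower in BTEE-treated cells (median 0.09). Of the symbols with a mean signal of at least 9, 36.1% were higher and 41.8% lower in control cells. In BTEE-treated cells 37.2% and 36.5% were.

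Of 19 genes of histone transcription and mRNA 3′ end processing, 5 were higher and 2 lower with BTEE at 6 h and 3 were higher at 17 h, with list medians of -0.10 and 0.05. Except for the higher genes at 6 h, these shares were near or below those of all symbols. Slbp, which encodes the stem-loop binding protein, read 10.63 and 10.96 in control and 10.53 and 10.49 in BTEE-treated cells at 6 h (log2 -0.29) and 10.52 and 10.70 against 10.65 and 10.71 at 17 h (0.07), without passing. Npat, the coactivator of histone gene transcription, stood at -0.06 and -0.14 and did not pass either. Casp8ap2, which encodes the FLASH protein of the processing complex, rose by 0.74 at 6 h (limma adjusted p = 0.00732) and stood at 0.13 at 17 h. Also at 6 h, Zfp473, the zinc finger protein of the U7 snRNP complex, rose by 1.05, the exonuclease gene Eri1 by 0.32, and Hinfp, a transcription factor of H4 genes, fell by 0.82. Zfp473 read 3.77 and 4.17 in control and 4.88 and 5.16 in BTEE-treated cells at 6 h, below the array median. At 17 h the cleavage factor gene Cpsf3, which had been lower at 6 h (-0.27, limma adjusted p = 0.035), rose by 0.81, Srrt by 0.56 and the S phase kinase gene Cdk2 by 0.47.

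Of 14 replication-independent histone variants, which are made outside S phase too and have polyadenylated mRNAs for the most part, 2 were higher and 1 lower at 6 h, with H2afv at -0.59, H1fnt at 0.44 and H1f0 at 0.42, a share of higher genes near that of all symbols. H1fnt read 4.24 and 4.29 in control and 4.82 and 4.59 in BTEE-treated cells at 6 h, below the array median (limma adjusted p = 0.0498). At 17 h 5 were higher and 9 did not pass, led by the centromeric H3 variant Cenpa at 0.75, H2afj at 0.71, the DNA damage-linked H2afx at 0.69 and H2afz at 0.42. Of 24 histone chaperones and importers, 6 were higher and 3 lower at 6 h, and 12 higher and 2 lower at 17 h. The importin gene Ipo4 fell at 6 h (-0.82) and rose at 17 h (0.73), as did the H3.3 chaperone gene Daxx (-0.64, then 0.42 with a limma adjusted p of 0.00741) and the importin gene Ipo9 (-0.35, then 0.30), while the chaperone gene Rbbp4 went the other way (0.40, then -0.32). Chaf1a of the replication-coupled assembly factor CAF-1 was higher at both (0.58 and 0.61), as was the H3-H4 chaperone gene Asf1b (0.45 and 0.61). Mms22l was higher at 17 h (0.91).

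From 6 h to 17 h these 3 lists held more lower than higher genes in control cells, where 26.4% of all symbols were lower and 25.8% higher. Among symbols with a mean signal of at least 9, 41.8% were lower and 36.1% higher. The median signal of the genes of a list was 9.99 to 10.59. Of the 14 variants 8 were lower and 2 higher (median -0.40), led by Cenpa, which fell by 4.15 on the log2 scale, from 12.96 and 12.87 to 8.86 and 8.67 (limma adjusted p = 1.59e-07), and H2afx, which fell by 3.53, from 13.56 and 13.52 to 10.01 and 10.01 (limma adjusted p = 1.7e-07). No array of 17 h reached the range of 6 h for either gene. Of the 19 genes of transcription and processing 10 were lower and 3 higher (median -0.32), with the helicase gene Upf1, which acts in histone mRNA decay, at -1.67 and Hinfp at -1.64. Of the 24 chaperones and importers 11 were lower and 6 higher (median -0.08), and Daxx fell by 4.43. Their share of lower genes was near that of symbols with a mean signal of at least 9. In BTEE-treated cells, where 24% of all symbols were lower and 23.6% higher, 8 variants were lower and 1 higher (median -0.26), 11 processing genes lower and 5 higher (-0.35), and 10 chaperones lower and 9 higher (0.01). In these cells 36.5% of the symbols with a mean signal of at least 9 were lower and 37.2% higher, near the shares of the chaperones. There Cenpa stood at -3.59, H2afx at -2.86 and Daxx at -3.38.

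The 10 macrophage markers had 1 higher and 4 lower at 6 h, with array means of 14.82 to 14.84 with BTEE and 15 to 15.01 in control cells, and 1 higher and 2 lower at 17 h. Over all symbols 14.5% were higher and 15.7% lower at 6 h, and 14.9% and 13.6% at 17 h. The 16 markers of other cell types had 1 higher and 1 lower at 6 h and 2 lower at 17 h. Except for the lower macrophage markers at 6 h, the shares of both lists were near or below those of all symbols. The part of these markers in the histone result was not tested.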

How the data were processed

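The 8 arrays (Clariom S, mouse) form 4 groups of 2 RAW264 samples, and groups, doses and times were read from the sample labels. SST-RMA normalization was done by the authors in the Transcriptome Analysis Console, and they deposited the result as log2 signals of 22206 probe sets. Gene symbols came from the 2 comparison tables that the authors deposited; these also hold fold changes, p-values and FDRs, which were not used, and their group averages were within 0.005 of the group means computed here.

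A probe set was dropped when it had several symbols (836) or no symbol (3), or when a brighter one existed for its symbol (213), which gave 21154 symbols. The linear model was limma's (version 3.58.1, R 4.3.3), a mean for each group over all 8 arrays with empirical Bayes moderation, 4 residual and 3.12 prior degrees of freedom, and Benjamini-Hochberg adjustment over all symbols. It was tested on simulated data. The number of arrays limits the precision.

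The members and lists were chosen with earlier results of these data known. For each comparison and class, up to 4 called genes with the largest change and no overlap of arrays were named, as were genes with opposite calls at the 2 times, and the testis forms and Hist4h4 whatever their values. Of each list of other genes, up to 4 called genes with the largest change were named, and Slbp, Npat and Casp8ap2 whatever their values. Alternatives are given in the closing section. Positions are from RefSeq on GRCm38. Replicate numbers did not pair the samples: the differences between replicates 1 and 2 correlated between groups at -0.0011 to 0.0202.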

Additional observations from a re-analysis of the deposited data

Results flagged for a closer look

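The BTEE effect differed between 6 h and 17 h of LPS stimulation for many histone genes, by limma's test of the difference itself. It was larger at 17 h for 21 genes and smaller for 12, where 16.7% and 14.8% of all symbols were. By class it was larger and smaller for 13 and 2 H2a genes, 1 and 8 H2b genes and 5 and 2 H4 genes. It was larger for 1 H3 and 1 H1 gene. The shares of smaller effects in H2a and H4, and of larger ones in H2b, H3 and H1, were near or below those of all symbols. The genes concerned that had the largest values of their class, with the log2 difference of 17 h minus 6 h, were Hist1h2al (1.515), Hist2h2ac (1.225) and Hist2h2aa1 and Hist2h2aa2 (1.165 each) for H2a. For H2b they were Hist1h2bj (-1.34), Hist1h2bn (-1.31), Hist1h2br (-1.26) and Hist1h2bk (-1.075). For H4 they were Hist4h4 (-1.405), Hist1h4d (1.035), Hist1h4h (0.995) and Hist2h4 (-0.895), for H3 Hist1h3i (0.47) and for H1 Hist1h1d (0.69). Both comparisons use separate arrays, so no control array is shared between the times.

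Of the probe sets with several symbols, all of them histone genes, which were outside the members, 5 of 6 were higher with BTEE at 6 h. Their log2 fold changes were 0.715 for Hist1h4j with Hist1h4m, 0.41 for Hist1h4m with Hist1h4n, 1.245 for Hist1h2bq with Hist1h2br, 0.255 for Hist1h2ad with Hist1h3b and Hist1h3d, and 0.255 for Hist1h2ao with Hist1h2ap, Hist1h2ai and Hist1h2ah. At 17 h the values were 0.43, 0.48, 0.08 (not passed), 0.56 and 0.96 in the same order. The probe set of Hist1h2ap alone carried the same values as the last of these, and that of Hist1h4n the same as Hist1h4m with Hist1h4n.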

How the results depend on the processing

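No call of a histone gene changed its direction under the alternatives run. Of 208 calls over the 5 comparisons, between 191 and 201 passed without any single array, 204 with the replicate number as a block, 197 without moderation of the variance, and 37 with the spread of the olfactory and vomeronasal receptor genes added to the standard error. That last setting gave 0 higher and 0 lower at 6 h, 0 higher at 17 h, and 0 and 0 for the difference between the times. In each of these comparisons it called 0 of all symbols. From 6 h to 17 h it gave 27 lower and 0 higher in control cells and 10 lower in BTEE-treated cells. With calls by a fold over 1.5 and an unadjusted p under 0.05, 19 were higher and 0 lower at 6 h, and 0 were higher from 6 h to 17 h in control cells. The 3 lower genes at 6 h became 5 among genes with a mean signal of at least 6, and 1 with the 4 arrays alone or without moderation. The 0 lower genes at 17 h became 1 with a trend and robust prior. The cause of these shifts was not tested. Among members with a mean signal of 11 to 15, fewer by construction and chosen after seeing the data, 0 were lower at 6 h, 22 higher at 17 h, 8 differences larger, and 27 lower and 0 higher in control and 27 lower in BTEE-treated cells from 6 h to 17 h.

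Without 1 array, 22 to 30 were higher and 1 to 3 lower at 6 h (1 without BTEE-treated replicate 2 or either control array), 33 to 40 higher at 17 h, 15 to 19 differences larger and 10 to 12 smaller, 50 to 51 lower in control and 50 to 51 lower in BTEE-treated cells from 6 h to 17 h. With the replicate number as a block, which does not pair these samples, the counts were 30 higher and 3 lower at 6 h, 40 higher and 0 lower at 17 h, 19 larger and 11 smaller differences, 2 higher and 51 lower in control cells and 0 higher and 51 lower in BTEE-treated cells.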
